A study of Homo sapiens with 16 samples.

Results

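The small nucleolar RNA (snoRNA) host transcripts are the genes of the deposited table named SNHG followed by a number, together with GAS5, ZFAS1 and EPB41L4A-AS1. Membership went by name alone, although the set was chosen with earlier results of these data known. The hosts make up 28 of the 58884 genes listed. A mean of at least 0.5 TPM (a measure of transcript abundance scaled for transcript length and library size) over the 6 RNA-seq libraries was reached by 24 of them, and these 24 were tested. SNHG28, SNHG18, SNHG14 and SNHG27 fell below that level, and the last 2 were listed at 0 in every library. The RNA came from wild type 293T cells, a human embryonic kidney line, 72 h after transfection with Dharmacon siRNA. The study compared a scramble siRNA with siRNAs against SETD2 and against hnRNP L to ask what each depletion does to the transcriptome. Each siRNA has 2 libraries, and the labels number those of SETD2 siRNA 2 and 3 and the others 1 and 2. Ribosomal RNA was depleted and polyadenylated RNA was enriched before library preparation. The study describes the replicates of its sequencing experiments as biological and independent, without saying whether they came from separate cultures. The p-values rest on the spread between the 2 libraries of an siRNA, pooled over the 3 siRNAs. That spread is drawn towards the one usual for genes of similar level.

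A snoRNA host is a spliced transcript whose introns carry snoRNAs. After splicing, the intron is trimmed to the mature snoRNA, which guides ribose methylation (box C/D class) or pseudouridylation (box H/ACA class) of ribosomal RNA, and the related scaRNAs act on spliceosomal RNA. The joined exons of many such hosts code for no conserved protein, are translated briefly and are removed by nonsense-mediated decay (NMD), and several begin with the pyrimidine tract typical of ribosomal protein mRNAs. hnRNP L binds CA-rich pre-mRNA and regulates splicing, and SETD2 trimethylates lysine 36 of histone H3 on transcribed genes.

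Of the 24 tested hosts, 8 hold box C/D snoRNAs, 9 hold box H/ACA snoRNAs, 4 hold scaRNAs and 3, GAS5, SNHG12 and SNHG25, hold snoRNAs of both boxes (GAS5 by RefSeq, the others by GENCODE release 44). SnoRNAs of SNHG1, SNHG9 and SNHG11, whose levels differed between siRNAs below, are shown first, since they are what those introns carry. SNHG1 (ENSG00000255717, hg38 chr11:62851978-62855953, minus strand, 11 exons in its canonical transcript) holds 7 box C/D snoRNA genes, all intronic, of which SNORD25 (chr11:62855564-62855632), SNORD27 (chr11:62855012-62855083) and SNORD30 (chr11:62853663-62853732) carry both sequence boxes exactly. Capitals mark box C (TGATGA) and box D (CTGA).
SNORD25: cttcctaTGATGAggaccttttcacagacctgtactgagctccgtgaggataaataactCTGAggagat
SNORD27: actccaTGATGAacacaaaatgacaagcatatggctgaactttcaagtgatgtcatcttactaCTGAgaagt
SNORD30: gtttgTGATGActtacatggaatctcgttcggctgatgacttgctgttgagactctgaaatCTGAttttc
SNHG4, SNHG9 and SNHG11 hold H/ACA snoRNAs, a class named in part for the ACA box near the 3′ end, in capitals in the 2 shown here. SNORA78 lies in an intron of SNHG9 (chr16:1965184-1965310, plus strand) and SNORA60 in an intron of SNHG11 (chr20:38449370-38449503, plus strand). The ACA is followed by 3 annotated bases in SNORA78 and 0 in SNORA60.
SNORA78: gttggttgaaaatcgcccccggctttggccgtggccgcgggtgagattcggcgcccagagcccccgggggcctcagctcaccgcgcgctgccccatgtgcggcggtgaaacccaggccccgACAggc
SNORA60: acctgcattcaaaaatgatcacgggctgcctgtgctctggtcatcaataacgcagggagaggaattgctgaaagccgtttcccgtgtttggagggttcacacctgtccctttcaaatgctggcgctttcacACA

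Transcription starts are shown because a pyrimidine tract there is a known feature of these hosts. The RefSeq promoter table (GRCh38.p14) held an entry for 24 of the 28 hosts. A C followed by at least 4 pyrimidines (C or T) on the transcribed strand, beginning within 10 bases of the annotated start, was found in 14 of those 24 (58.3%), against 58 of 70 cytosolic ribosomal protein genes (82.9%) and 11755 of all 35116 promoters (33.5%). These counts hold for the RefSeq starts. The GENCODE starts of SNHG1 and GAS5 lie elsewhere, that of SNHG1 upstream of the bases shown. Below are 60 bases before and 40 after the RefSeq start, with the tract nearest the start in capitals. ZFAS1 (chr20:49278582-49278681, plus strand), SNHG5 (chr6:85678694-85678793, minus strand) and SNHG4 (chr5:139274041-139274140, plus strand) have it exactly at the start, over 5, 5 and 13 bases, and SNHG1 (chr11:62855846-62855945, minus strand) has none by this definition.
ZFAS1: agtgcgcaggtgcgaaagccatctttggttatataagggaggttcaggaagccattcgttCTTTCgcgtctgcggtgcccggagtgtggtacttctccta
SNHG5: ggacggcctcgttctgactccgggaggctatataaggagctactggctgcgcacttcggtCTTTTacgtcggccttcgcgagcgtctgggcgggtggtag
SNHG4: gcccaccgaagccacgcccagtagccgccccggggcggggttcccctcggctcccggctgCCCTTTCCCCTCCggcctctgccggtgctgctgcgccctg
SNHG1: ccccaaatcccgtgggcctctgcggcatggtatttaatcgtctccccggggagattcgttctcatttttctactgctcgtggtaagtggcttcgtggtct

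TPM divide by transcript length, so levels can be set side by side between genes. The hosts covered a wide range, from 7 with a mean TPM of at least 100 through 12 between 10 and 100 and 5 between 0.5 and 10 to the 4 untested ones. SNHG29, which hosts SNORD49A, SNORD49B and SNORD65, had the highest mean at 772 TPM, followed by GAS5 at 369, SNHG5 at 261 and SNHG1 at 238. These 4 made up 61.5% of the hosts' summed mean TPM and the 10 highest made up 89.5%. The summed TPM of all 28 hosts was 2343 and 2777 in the scramble libraries, 2737 and 2500.0 in the SETD2 siRNA libraries and 2888 and 2754 in the hnRNP L siRNA libraries, which is between 0.234% and 0.289% of each library. The lowest and the second highest of these sums both came from scramble siRNA.

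**Figure D1:**
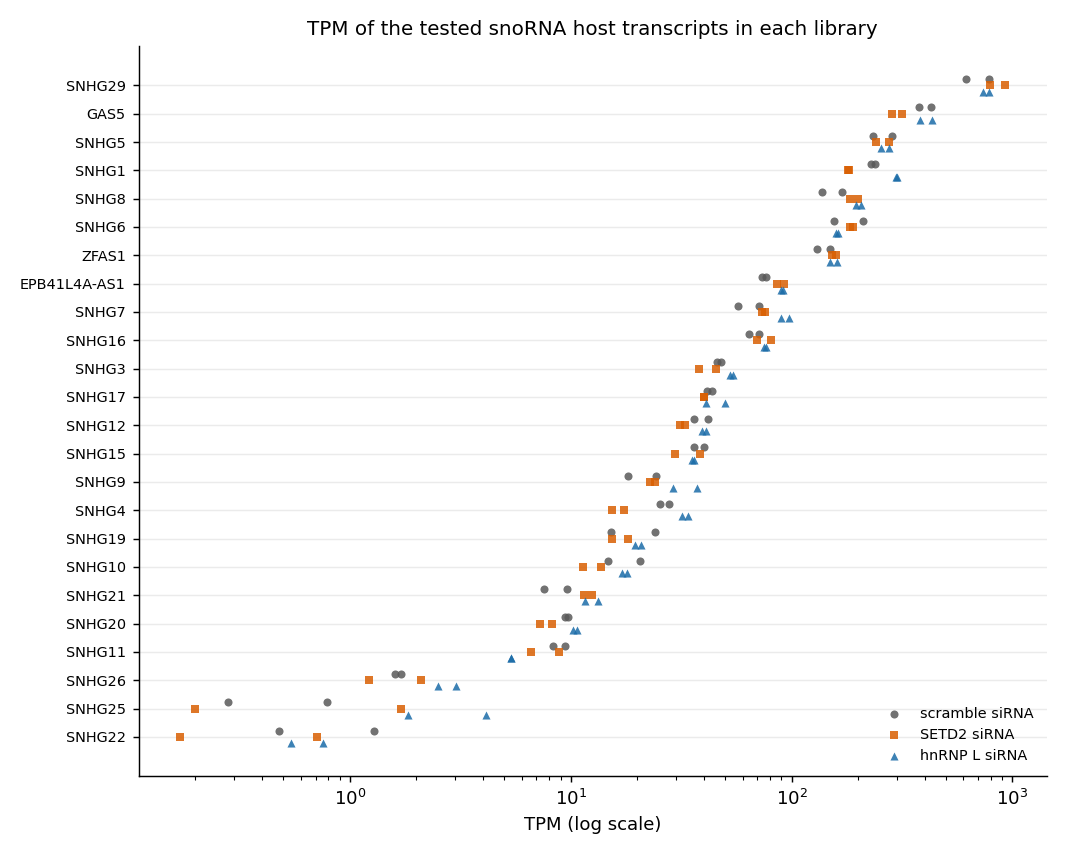
TPM (log scale) of the 24 tested snoRNA host transcripts, ordered by mean, with 1 point per library: circles for scramble, squares for SETD2 siRNA and triangles for hnRNP L siRNA. SNHG29 leads with a mean of 772 TPM, and most hosts differ far more from each other than between siRNAs.

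The siRNA targets were checked first. SETD2 mRNA was 13.4 and 11.7 TPM with scramble and 4.24 and 4.91 TPM with SETD2 siRNA, so 36.5% was left, and HNRNPL mRNA went from 341 and 457 TPM to 25.0 and 28.8 TPM with hnRNP L siRNA, so 6.75% was left. The share of TPM on the 37 mitochondrially encoded genes was 17.5% in scramble replicate 1 and 6.70% to 10.9% in the other 5 libraries. Of the 24 tested hosts, 19 were lower in scramble replicate 1, where this share was highest, than in scramble replicate 2. TPM sum to a fixed total, but the part of this share in the results was not tested. Values with the mitochondrial genes taken out, or with scramble replicate 1 left out, are given beside some of the results and not beside all. Of 11 markers of blood, fibroblast, endothelial and liver cells, 3 to 5 were at 0 in each library, PTPRC and VWF in every library, and the sum of all 11 was 8.33 to 9.39 TPM with scramble, 7.74 to 10.6 TPM with SETD2 siRNA and 6.48 to 7.49 TPM with hnRNP L siRNA. In bulk RNA, a change in the number of cells that express a host and a change in RNA per cell cannot be told apart.

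Depletion of SETD2 changed no host past the threshold. The threshold throughout is an adjusted p under 0.05 from limma, fitted on log2(TPM + 0.5) over 16300 genes with 1 mean per siRNA and Benjamini-Hochberg adjustment, together with a fold change above 1.5. Of the 24 tested hosts 0 were called higher and 0 lower, against 0.0552% and 0.0491% of all tested genes. At an unadjusted p under 0.05 there were 3 higher and 6 lower hosts, or 9 of 24, where the share over all tested genes was 13.1%. Both SETD2 siRNA libraries lay above both scramble libraries for 6 hosts and below them for 8, against 22.9% and 20.6% of all tested genes. The median log2 fold change of the hosts was -0.05 beside 0.01 for all tested genes. The hosts' median ran from -0.14 with the mitochondrial genes taken out to 0.01 without SETD2 siRNA replicate 3. The median of all tested genes was then -0.07 and -0.03.

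SNHG4 had the lowest log2 fold change of the 24 hosts with SETD2 siRNA. Its TPM were 27.8 and 25.4 with scramble and 15.5 and 17.5 with SETD2 siRNA. Both depleted libraries were below both controls, by a log2 fold change of -0.68 (SE 0.11, limma adjusted p = 0.0867). When only protein-coding and lncRNA genes were fitted, so that fewer genes were tested, the adjusted p was 0.0265 and SNHG4 was called lower. GAS5, a host mostly of box C/D snoRNAs, named for its accumulation in growth-arrested cells, had 376 and 428 TPM with scramble and 315 and 284 TPM with SETD2 siRNA. The groups did not overlap, and the log2 fold change was -0.42 (SE 0.11, adjusted p = 0.215). SNHG1 had 229.8 and 239 TPM with scramble against 181 and 181 TPM with SETD2 siRNA. This difference of -0.37 on the log2 scale (SE 0.09, adjusted p = 0.194) did not pass either. With the mitochondrial genes taken out, the log2 fold changes of SNHG4, GAS5 and SNHG1 were -0.77, -0.52 and -0.47, none past the threshold.

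Other abundant hosts were level or higher with SETD2 siRNA, none past the threshold. SNHG29 had 617 and 780 TPM with scramble and 927 and 787 TPM with SETD2 siRNA (log2 fold change 0.30, SE 0.14, adjusted p = 0.394). SNHG8, which hosts SNORA24, had 138 and 169 TPM against 199.7 and 185 TPM (0.33, SE 0.12, adjusted p = 0.291). In both hosts the depleted libraries were above the controls, with scramble replicate 1 the lowest. EPB41L4A-AS1, which hosts SNORA13, had 73.5 and 76.7 TPM against 92.6 and 85.7 TPM (0.24, SE 0.09, adjusted p = 0.328). SNHG5 was the most even, with 234 and 285 TPM against 276 and 242 TPM (0.00, SE 0.12, adjusted p = 0.998). SNHG7 (0.22, SE 0.12, adjusted p = 0.455), ZFAS1 (0.16, SE 0.10, adjusted p = 0.539), SNHG6 (0.04, SE 0.14, adjusted p = 0.925), SNHG9 (0.16, SE 0.16, adjusted p = 0.699) and SNHG11 (-0.20, SE 0.15, adjusted p = 0.616) did not pass either. With the mitochondrial genes taken out, SNHG29 had 0.20, SNHG8 0.24, EPB41L4A-AS1 0.15, SNHG7 0.13 and ZFAS1 0.06. In the same setting SNHG9 had 0.07, SNHG6 -0.06, SNHG5 -0.10 and SNHG11 -0.29.

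After hnRNP L depletion SNHG9 rose and SNHG11 fell. SNHG9 (ENSG00000255198, chr16:1964895-1965509, plus strand, 2 exons) had 18.2 and 24.2 TPM with scramble and 37.5 and 28.95 TPM with hnRNP L siRNA. Its groups did not overlap, and the log2 fold change was 0.64 (SE 0.16, limma adjusted p = 0.0409), a fold of 1.55. SNHG11 (ENSG00000174365, chr20:38446343-38450940, plus strand, 6 exons) had 8.32 and 9.40 TPM with scramble and 5.37 and 5.35 TPM with hnRNP L siRNA. Both depleted libraries were lower, by a log2 fold change of -0.67 (SE 0.15, adjusted p = 0.0289), a fold of 0.627. Thus 1 of 24 tested hosts was called higher and 1 lower, against 1.75% and 5.01% of all tested genes.

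Both calls depended on the libraries used. SNHG9 stayed past the threshold only without scramble replicate 2 (adjusted p = 0.0450). Its adjusted p was 0.188 without scramble replicate 1, where its log2 fold change was 0.43, and 0.0869, 0.0870, 0.272 and 0.0779 without SETD2 siRNA replicates 2 and 3 and hnRNP L siRNA replicates 1 and 2. SNHG11 kept its call without either SETD2 siRNA library, and had adjusted p = 0.0953 and 0.119 without scramble replicates 1 and 2 and 0.166 and 0.135 without hnRNP L siRNA replicates 1 and 2. With the mitochondrial genes taken out, both were called (SNHG9 0.59, adjusted p = 0.0418, and SNHG11 -0.72, adjusted p = 0.0238).

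SNHG7 and SNHG1 passed the adjusted p after hnRNP L depletion but not the fold cut-off. SNHG7, which hosts SNORA17A and SNORA17B, had 57.1 and 71.3 TPM with scramble and 89.9 and 97.8 TPM with hnRNP L siRNA (log2 fold change 0.55, SE 0.12, adjusted p = 0.0253). SNHG1 had 298 and 300.4 TPM with hnRNP L siRNA, above both scramble libraries (0.35, SE 0.09, adjusted p = 0.0416). SNHG4, with 34.1 and 31.8 TPM, was also above both scramble libraries, without passing (0.30, SE 0.11, adjusted p = 0.117). GAS5, with 430.1 and 383 TPM, overlapped the scramble libraries (0.02, SE 0.11, adjusted p = 0.942). SNHG25, a mixed-class host, had the highest log2 fold change of the tested hosts, 1.71 (SE 0.53, adjusted p = 0.0713), from 0.79 and 0.28 TPM to 4.13 and 1.84 TPM. At such levels the value rests on few reads, and it was called with a replicate block (adjusted p = 0.0126) and when only protein-coding and lncRNA genes were fitted (adjusted p = 0.0148).

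Over the whole set, 20 of 24 tested hosts were above 0 with hnRNP L siRNA and 4 below, where 38.8% of all tested genes were above 0. Their median log2 fold change was 0.14 beside -0.08 for all tested genes. The hosts' median was 0.09 with the mitochondrial genes taken out, 0.24 with median-ratio scaling, 0.10 without scramble replicate 1 and 0.24 without scramble replicate 2. In the same order, the median of all tested genes was -0.13, 0.001, -0.11 and -0.05. With hnRNP L siRNA, 12 hosts lay above both scramble libraries in both libraries and 2 below, against 18.8% and 37.8% of all tested genes. An unadjusted p under 0.05 was reached by 9 higher hosts and 1 lower host, where the share over all tested genes was 28.4%. Among the abundant hosts, SNHG8 reached 207 and 195 TPM (0.40, SE 0.12, adjusted p = 0.0629) and EPB41L4A-AS1 91.4 and 89.3 TPM (0.27, SE 0.09, adjusted p = 0.106). SNHG29 with 783 and 738 TPM (0.13, SE 0.14, adjusted p = 0.575), SNHG5 with 276 and 253 TPM (0.03, SE 0.12, adjusted p = 0.891) and ZFAS1 with 149.5 and 161 TPM against 130.4 and 149.7 TPM (0.15, SE 0.10, adjusted p = 0.381) overlapped the controls. SNHG6, which hosts SNORD87, had 156 and 211 TPM with scramble, 190.0 and 183 TPM with SETD2 siRNA and 162 and 159 TPM with hnRNP L siRNA (-0.18, SE 0.14, adjusted p = 0.442, hnRNP L siRNA against scramble). SNHG16 had 64.0 and 71.2 TPM with scramble, 70.03 and 80.5 TPM with SETD2 siRNA and 76.6 and 74.9 TPM with hnRNP L siRNA, with log2 fold changes of 0.15 (SE 0.11, adjusted p = 0.572) and 0.16 (SE 0.11, adjusted p = 0.359).

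**Figure D2:**
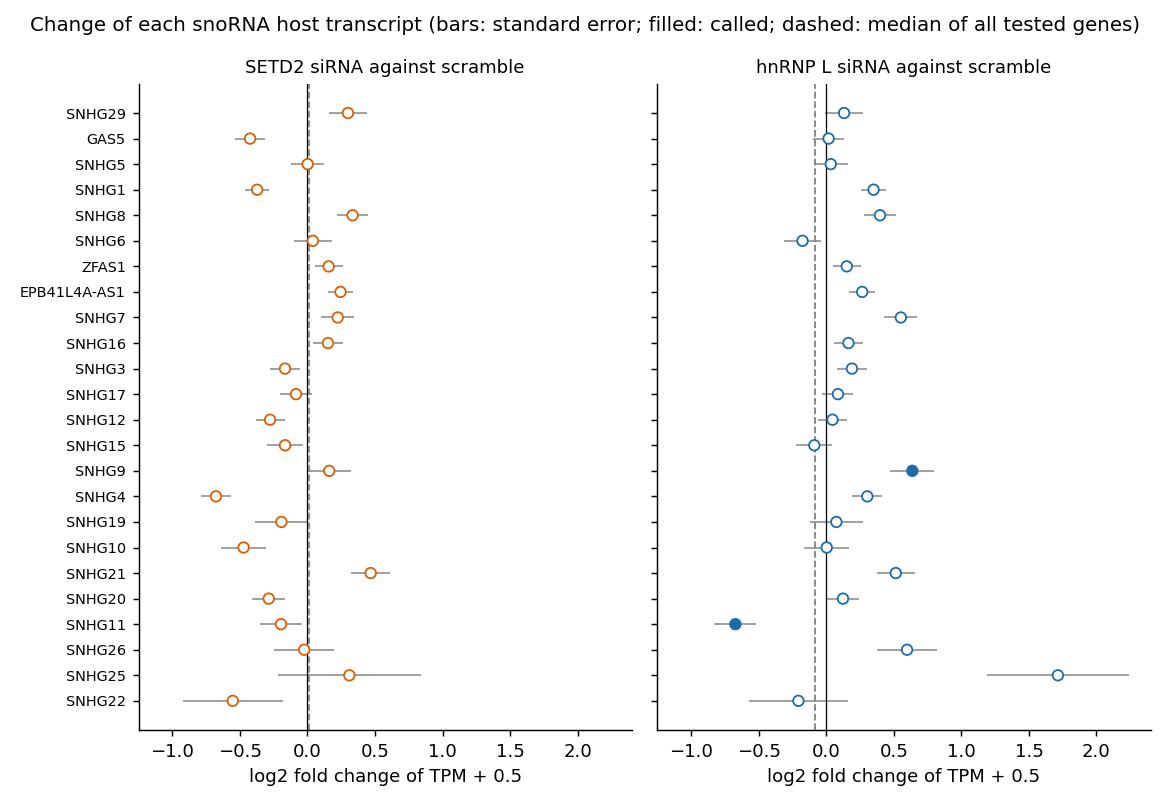
Log2 fold change of TPM + 0.5 with its standard error for each tested host, SETD2 siRNA against scramble on the left and hnRNP L siRNA against scramble on the right. Filled points are called, and the dashed line is the median of all tested genes. On the left no point is filled, and on the right SNHG9 (0.64) and SNHG11 (-0.67) are.

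The depletions share their scramble libraries, so their effects on the hosts were compared directly, hnRNP L siRNA against SETD2 siRNA. The scramble libraries do not enter this difference, but they enter the spread used to test it. SNHG4 and SNHG1 were higher with hnRNP L siRNA. SNHG4 (ENSG00000281398, chr5:139274102-139284899, plus strand, 5 exons) had 34.1 and 31.8 TPM with hnRNP L siRNA against 15.5 and 17.5 TPM with SETD2 siRNA. The scramble libraries, at 27.8 and 25.4 TPM, lay between, and the log2 difference was 0.98 (SE 0.11, limma adjusted p = 0.00274), a fold of 1.97. SNHG1 had 298 and 300.4 TPM against 181 and 181 TPM, again with scramble between. Its log2 difference was 0.72 (SE 0.09, adjusted p = 0.00400), a fold of 1.65.

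Of the 24 hosts 2 were called higher and 0 lower with hnRNP L siRNA than with SETD2 siRNA, against 2.15% and 4.69% of all tested genes. At an unadjusted p under 0.05 there were 11 higher and 1 lower, SNHG11, where the share over all tested genes was 28.5%. SNHG4 was called in each of its 16 alternatives, with log2 differences of 0.89 to 1.09. SNHG1 was called in 11 of 16. With a replicate block over all 6 libraries its difference was 0.74 (adjusted p = 0.0899), and without 1 depleted library it was 0.72 to 0.73 with adjusted p = 0.0631 and 0.0592 without SETD2 siRNA replicates 2 and 3 and 0.0634 and 0.0549 without hnRNP L siRNA replicates 1 and 2.

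GAS5 was next among the abundant hosts, 0.44 higher on the log2 scale with hnRNP L siRNA than with SETD2 siRNA (SE 0.11, adjusted p = 0.0435), a fold of 1.36 and under the cut-off. SNHG11 was lower by a log2 difference of -0.48 (SE 0.15, adjusted p = 0.0830), and SNHG9 was higher by 0.48 (SE 0.16, adjusted p = 0.0962), neither past the threshold. SNHG8, EPB41L4A-AS1, SNHG16, SNHG5 and ZFAS1 differed by -0.01 to 0.06 between the depletions, with adjusted p between 0.763 and 0.979. SNHG29 (-0.17, SE 0.14, adjusted p = 0.464) and SNHG6 (-0.22, SE 0.14, adjusted p = 0.339) were lower in both hnRNP L siRNA libraries, and SNHG7 was higher in both (0.33, SE 0.12, adjusted p = 0.117).

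Both hnRNP L siRNA libraries lay above both SETD2 siRNA libraries for 13 tested hosts and below for 3, against 18.6% and 41.2% of all tested genes. The median log2 difference was 0.29 for the hosts and -0.10 for all tested genes, with 20 of 24 hosts above 0 where 35.8% of all tested genes were. With median-ratio scaling, which brings the median of all genes to about 0, the hosts' median became 0.39. With the mitochondrial genes taken out it was 0.34, beside -0.06 for all tested genes.

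**Figure D3:**
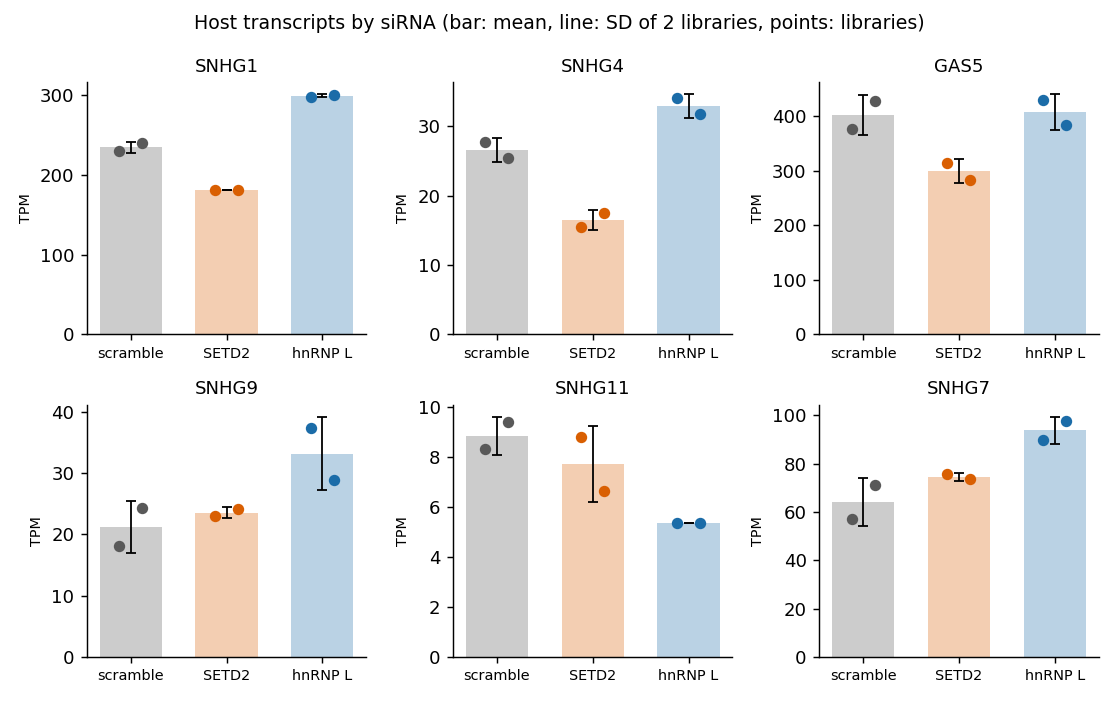
TPM of SNHG1, SNHG4, GAS5, SNHG9, SNHG11 and SNHG7 by siRNA. Bars are means from 0, lines the SD of 2 libraries and points the libraries. SNHG1 and SNHG4 are lowest with SETD2 siRNA and highest with hnRNP L siRNA, and SNHG11 is lowest with hnRNP L siRNA at 5.37 and 5.35 TPM.

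By class, the 8 box C/D hosts had a median log2 difference of 0.02 between hnRNP L and SETD2 siRNA, the 9 box H/ACA hosts 0.17, the 3 mixed hosts 0.44 and the 4 scaRNA hosts 0.38. The scaRNA hosts SNHG10, SNHG20, SNHG21 and SNHG22 were all above 0 in that comparison, and none was called. SNHG10, which hosts SCARNA13, had 14.8 and 20.65 TPM with scramble, 13.7 and 11.3 TPM with SETD2 siRNA and 17.1 and 18.0 TPM with hnRNP L siRNA. Its SETD2 siRNA libraries were below the other 4, and those of hnRNP L siRNA lay between the scramble libraries. SNHG20 had 9.43 and 9.68 TPM, 7.25 and 8.27 TPM, and 10.6 and 10.3 TPM in the same order of groups, with those of hnRNP L siRNA above all others. SNHG21 did not, being higher with both siRNAs than with scramble (log2 fold changes of 0.47, adjusted p = 0.244, and 0.51, adjusted p = 0.0515). SNHG22 stayed between 0.17 and 1.28 TPM. Among the remaining hosts, SNHG3 (38.1 to 54.6 TPM), SNHG12 (31.3 to 41.8 TPM), SNHG17 (40.03 to 49.8 TPM) and SNHG19 (15.2 to 24.1 TPM) were higher in both hnRNP L siRNA libraries than in both SETD2 siRNA libraries. SNHG15 (29.8 to 39.9 TPM) overlapped between these groups, and SNHG26 (1.22 to 3.02 TPM) was higher in both hnRNP L siRNA libraries than in all 4 others.

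**Figure D4:**
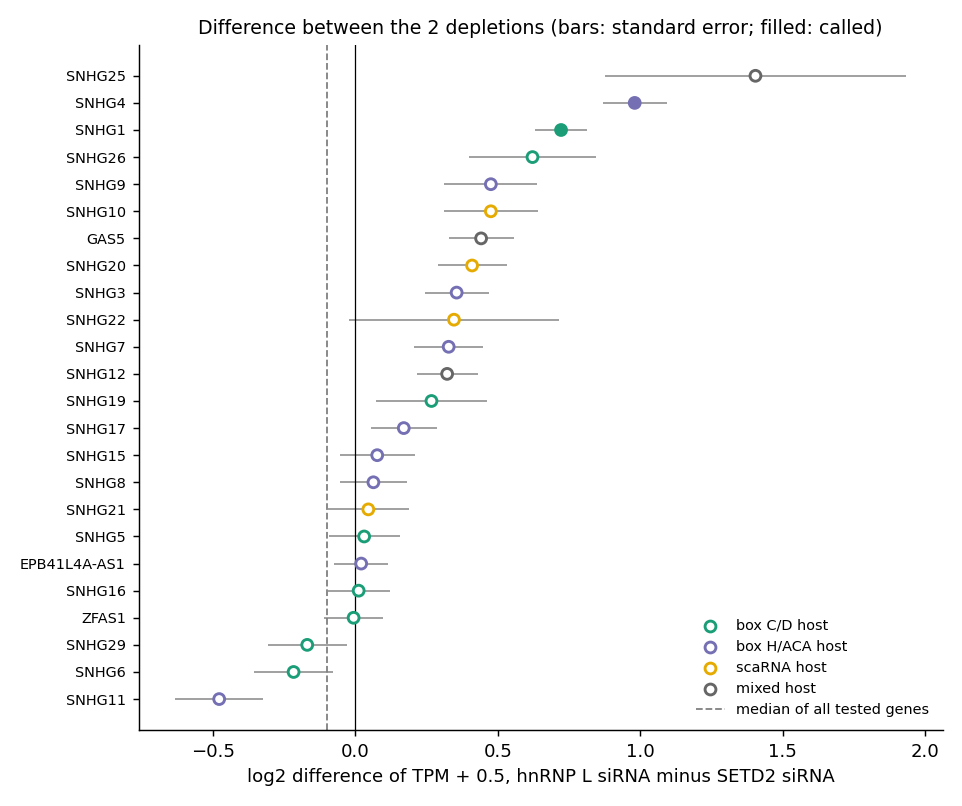
Log2 difference of TPM + 0.5 between hnRNP L siRNA and SETD2 siRNA for the 24 tested hosts, ordered by size, with standard errors. Colours give the class of snoRNA the host carries, filled points are called (SNHG4, 0.98, and SNHG1, 0.72), and the dashed line is the median of all tested genes, -0.10.

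The snoRNAs themselves were barely measured. GENCODE release 44 places 140 snoRNA and scaRNA genes of the table inside the 28 hosts, 84 of them in SNHG14, and 126 were listed at 0 in all 6 libraries. Mature snoRNAs, here 67 to 275 bases long outside SNHG14, have no poly(A) tail, and polyadenylated RNA was enriched, so a value of 0 says little about the snoRNA. Only 4 were above 0 in every library, the 2 SNORD22 genes of SNHG1, SCARNA13 of SNHG10 and SNORA73B of SNHG3, and they scattered widely within groups. SNORD22 (ENSG00000277194) had 18.1 and 0.81 TPM with scramble, 6.2 and 20.9 TPM with SETD2 siRNA and 2.03 and 28.6 TPM with hnRNP L siRNA, which shows no order by siRNA. Of the 10 with a mean TPM of at least 0.5, only SNORA24 of SNHG8 was called in any comparison. SNORA24 was called lower with hnRNP L siRNA than with scramble. It reached that mean only through the scramble libraries, so this call cannot count as a test. It was listed at 5.35 and 1.77 TPM with scramble and at 0 in the other 4 libraries, while SNHG8 itself was not lower there. SNORD25, SNORD27, SNORD30, SNORA78 and SNORA60 were listed at 0 throughout. For GAS5, GENCODE release 44 holds 0 separate snoRNA genes and RefSeq places 11 in its span, which have no separate values here.

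Several hosts share their locus with another gene, and the sources used here do not state whether the counting used strand. Of the 28 hosts, 8 overlap another protein-coding or lncRNA gene on the same strand and 15 on the opposite strand. SNHG4 lies along all 10798 bases of its span inside a MATR3 gene model on the same strand (ENSG00000280987) and opposite SIL1, so its reads may be shared. That MATR3 model, for a nuclear RNA-binding protein, had 36.7 and 31.5 TPM with scramble, 31.1 and 40.03 TPM with SETD2 siRNA and 29.8 and 33.5 TPM with hnRNP L siRNA, and SIL1 stayed between 41.4 and 46.9 TPM. Neither was below both scramble libraries in both SETD2 siRNA libraries, as SNHG4 was. SNHG3 lies within RCC1, SNHG20 overlaps SEC14L1 and SNHG5 overlaps ENSG00000271793, and none of these was called against scramble. LRRC75A, opposite SNHG29, was called higher with hnRNP L than with SETD2 siRNA (0.79, SE 0.20, adjusted p = 0.0382), while SNHG29 was not.

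A gene that starts within 1000 bases in the opposite direction was found for 10 hosts, and 7 of these pairs had both genes tested. By GENCODE positions, SNHG1 starts 51 bases from SLC3A2, the heavy chain of several amino acid transporters. SLC3A2 had 165 and 156 TPM with scramble, 124 and 118 TPM with SETD2 siRNA and 117 and 109 TPM with hnRNP L siRNA. It was thus below both controls with either siRNA (log2 fold changes of -0.41, SE 0.09, adjusted p = 0.184, and -0.50, SE 0.09, adjusted p = 0.0146, under the fold cut-off), while SNHG1 was above them with hnRNP L siRNA. Between the depletions SLC3A2 differed by -0.10 (SE 0.09, adjusted p = 0.550) and SNHG1 by 0.72. SNHG9 starts 54 bases from RPS2, a protein of the small ribosomal subunit, whose log2 fold change with hnRNP L siRNA was 0.25 (SE 0.16, adjusted p = 0.335) beside 0.64 for SNHG9. The other 5 pairs were GAS5 with ZBTB37, ZFAS1 with ZNFX1, SNHG16 with ENSG00000267546, SNHG19 with TRAF7 and SNHG22 with ACAA2, and neither gene of any of them was called.

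Comparison lists put the hosts beside their processing and decay machinery. Of 12 transcripts known to be removed by NMD, such as ATF4 and GADD45B, 0 were called in any of the 3 comparisons, with 4 higher and 0 lower at an unadjusted p under 0.05 with SETD2 siRNA, 1 and 1 with hnRNP L siRNA and 1 and 1 between the depletions. Of 15 NMD and exon junction complex genes, 0 were called with either siRNA against scramble (unadjusted, 3 higher and 1 lower with SETD2 siRNA, 0 and 3 with hnRNP L siRNA). Between the depletions 1 was higher and 6 lower at an unadjusted p under 0.05, 14 of 15 were below 0 with a median of -0.20, and MAGOHB was called lower with hnRNP L than with SETD2 siRNA, at 25.1 and 30.5 against 53.8 and 54.4 TPM (log2 difference -0.96, SE 0.12, adjusted p = 0.00368). MAGOHB and its near-identical copy MAGOH can share reads. Of 17 snoRNP proteins and assembly factors, 0 were called after either depletion (unadjusted, 2 higher, then 4 higher, and 0 lower in both), and between the depletions 3 were higher and 2 lower unadjusted. SNU13, which binds the box C/D motif, was called higher with hnRNP L than with SETD2 siRNA, at 278 and 270.3 against 181 and 159 TPM (0.69, SE 0.12, adjusted p = 0.0105).

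Ribosomal protein genes, 84 tested, had medians of 0.15, 0.13 and 0.00 in the 3 comparisons and 0 were called in any. At an unadjusted p under 0.05 there were 5 higher and 1 lower, 4 and 1, and 1 and 4. Protein-coding snoRNA hosts, 229 tested, had medians of 0.03, -0.03 and -0.05 where the noncoding hosts above had -0.05, 0.14 and 0.29 and 14 other lncRNA hosts -0.03, 0.08 and 0.22. They had 0 calls after SETD2 depletion (unadjusted, 9 higher and 11 lower), 1 higher and 7 lower after hnRNP L depletion, and 3 higher and 4 lower between the depletions. After hnRNP L depletion the lower ones included CHRFAM7A, a partial duplicate of CHRNA7 whose reads may be split (-1.05), DNAJC16 (-0.71) and ATP2B4 (-0.68). TAF1D, a subunit of the RNA polymerase I factor SL1, had 170 and 169.5 TPM with scramble, 136 and 139 TPM with SETD2 siRNA and 213 and 222 TPM with hnRNP L siRNA. That is the order of SNHG1 and SNHG4, with a log2 difference of 0.66 between the depletions (SE 0.09, adjusted p = 0.00507). TIMM23, of the mitochondrial inner membrane translocase, whose reads may be split with the copy TIMM23B, had the opposite order. It was called lower with hnRNP L than with SETD2 siRNA (-0.72, SE 0.10, adjusted p = 0.00477).

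Of 14 other lncRNA hosts tested, DANCR, which hosts SNORA26, rose after hnRNP L depletion. Its TPM were 58.2 and 69.1 with scramble, 73.5 and 76.6 with SETD2 siRNA and 119 and 117 with hnRNP L siRNA. The hnRNP L siRNA libraries were above all others, with log2 differences of 0.89 from scramble (SE 0.11, adjusted p = 0.00331) and 0.65 from SETD2 siRNA (SE 0.11, adjusted p = 0.0103). SCARNA9 bears the name of a scaRNA and is in this list only because its gene is annotated as a lncRNA. It was listed at 2.42 and 1.48 TPM with scramble and 0.85 and 0.54 TPM with hnRNP L siRNA. At these low levels it was called lower against scramble (-1.02, SE 0.25, adjusted p = 0.0370). These other lncRNA hosts had 0 calls after SETD2 depletion (unadjusted, 2 higher and 1 lower).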

How the data were processed

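RNA-seq of 293T cells was analysed in 3 siRNA groups of 2 libraries, taken from the sample labels, and the ChIP-seq samples of the series were not used here. According to the methods and the submitters' processing notes, base calls were converted with bcl2fastq 2.18 and mapped with STAR 2.6.1c to hg38 and Ensembl 96 models. RSEM 1.3.0 then gave the gene-level TPM values that the authors deposited. The study lists the read pairs sequenced for each library. TPM keep no read counts per gene, so the edgeR test of the study could not be repeated.

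A pseudocount of 0.5 was added before the log2 transformation, which understates changes of low genes. All 16300 genes of any biotype whose TPM averaged at least 0.5 entered limma 3.58.1 (R 4.3.3), with a mean for each siRNA, a variance trend in the empirical Bayes step and Benjamini-Hochberg adjustment. A gene was called when its adjusted p was under 0.05 and its fold exceeded 1.5, as in the study. With 2 libraries a group, the smallest two-sided p of an exact permutation test is 0.333. The fit was tested on simulated data. Positions came from GENCODE release 44 on hg38, and promoters from RefSeq. Tables and plots were made with Python 3.11.15, pandas 2.3.3 and Matplotlib 3.10.9.

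The hosts and lists were chosen with earlier results of these data known. Full statistics are given for hosts called in any comparison and for the 10 with the highest mean TPM, every host is named, and each list gives at most 3 called genes with the largest change per comparison. SNHG25, the scaRNA hosts, LRRC75A and the genes neighbouring hosts go beyond that rule and were described after their values were seen. Scramble and hnRNP L siRNA share the numbers 1 and 2, but deviations of same-numbered libraries correlated at -0.126, so the numbers were not taken to pair them. Alternatives comprised other pseudocounts (0.1 or 1), other filters (none, or a mean TPM of at least 1), only protein-coding and lncRNA genes, scaling by median ratios, removal of the 37 mitochondrially encoded genes, no variance trend, no fold cut-off, replicate blocks, and leaving out each library. The result for a single marker gene and the sequence of a single snoRNA are not reported here.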

Additional observations from a re-analysis of the deposited data

Results flagged for a closer look

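The effects of the depletions on SNHG1 and SNHG4 differed by the direct test. SNHG1 was 0.72 higher on the log2 scale with hnRNP L siRNA than with SETD2 siRNA (limma adjusted p = 0.00400), with 298 and 300.4 against 181 and 181 TPM, and each siRNA's libraries lay on its own side of the scramble libraries. SNHG4 was 0.98 higher (adjusted p = 0.00274), with 34.1 and 31.8 against 15.5 and 17.5 TPM, again on either side of scramble.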

How the results depend on the processing

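No called host changed direction under any alternative in the comparison in which it was called. After hnRNP L depletion, hosts called higher (1) became 0 with no filter, 2 with protein-coding and lncRNA genes only, 3 with median-ratio scaling, 0 with no variance trend and 3 with no fold cut-off, and hosts called lower (1) became 0 with no filter, with median-ratio scaling and with no variance trend. After SETD2 depletion 1 host, SNHG4, was called lower with protein-coding and lncRNA genes only. With 1 library left out, the lone library of that arm being assumed to vary like the others, the calls after hnRNP L depletion ranged from 0 to 2 higher and 0 to 1 lower, and those between the depletions from 1 to 2 higher. The cause was not tested.

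With the replicate block (numbers 1 and 2, scramble and hnRNP L siRNA), 1 host was higher (SNHG25) and 0 lower, and over all genes 210 higher and 505 lower in place of 286 and 816. The crossed pairing, chosen after seeing the data because same-numbered deviations correlated at -0.126, gave 2 higher and 1 lower hosts and 413 and 993 genes. A replicate block over all 6 libraries, also chosen after seeing the data, leaves SETD2 siRNA replicate 3 alone in its block. It gave 1 higher (SNHG25) and 0 lower hosts after hnRNP L depletion, 1 higher (SNHG4) and 0 lower between the depletions, and none after SETD2 depletion, with 215 and 537, 51 and 45, and 16 and 11 genes in all.

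Over all genes, median-ratio scaling gave 420 higher and 528 lower after hnRNP L depletion in place of 286 and 816, and 457 and 460 between the depletions in place of 350 and 765. No filter gave 62 and 173, and 66 and 120. No fold cut-off gave 443 and 1383, and 451 and 1302. Leaving out a library gave 54 to 268 and 108 to 593, and 51 to 328 and 71 to 678. After SETD2 depletion (9 and 8) the counts were 25 and 35 with protein-coding and lncRNA genes only, 0 and 1 with no filter, 14 lower with a pseudocount of 0.1, 15 lower with a mean TPM of at least 1, and 3 to 13 and 5 to 32 with a library left out.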

Other observations

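The names in the table are older than GENCODE release 44, which gives SNHG names to 3 further genes of the table. C6orf48, now SNHG32, had 67.3 and 71.6 TPM with scramble, 125.7 and 104 TPM with SETD2 siRNA and 82.1 and 82.5 TPM with hnRNP L siRNA. Its SETD2 siRNA libraries were above the other 4, with a log2 fold change of 0.72 from scramble (SE 0.11, limma adjusted p = 0.0788), not past the threshold. Between the depletions it was lower with hnRNP L siRNA by a log2 difference of -0.47 (SE 0.11, adjusted p = 0.0329), under the fold cut-off, where SNHG1 and SNHG4 were higher. LINC02001 had 9.19 and 8.63 TPM with scramble, 12.7 and 11.2 TPM with SETD2 siRNA and 9.50 and 9.03 TPM with hnRNP L siRNA (0.40 for SETD2 siRNA against scramble, SE 0.12, adjusted p = 0.243). AC016708.1 was at or below 0.31 TPM in every library. These 3 genes were picked after their values were seen.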
